A study of Mus musculus with 24 samples.

Results

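Interleukin 2 (IL-2), the 3 chains of its receptor, the kinases JAK1 and JAK3, the transcription factors STAT5A and STAT5B and the feedback inhibitors CIS and SOCS1 were followed at the RNA level through 6 groups of activated mouse T cells. The 10 genes Il2, Il2ra, Il2rb, Il2rg, Jak1, Jak3, Stat5a, Stat5b, Cish and Socs1 were taken by name from the 55401 genes of the deposited count table. All 10 passed the filter on low counts in every comparison, and the lowest raw count of any of them in any library was 37. Poly(A) RNA had been sequenced from CD4 and CD8 T cells sorted from the spleens of C57BL/6 mice aged 12 weeks, after 2 days of activation in culture with antibodies to CD3 and CD28. The study asks about the role of Pou2af1 in such cells, a gene studied mostly in B cells, whose product is a coactivator of octamer-binding transcription factors. Controls (WT, wild type) lack Cre and are titled Pou2af1+/+, although their genotype label, CD4.Cre-.Pou2af1fl/fl, gives floxed alleles. Heterozygotes (Het) are CD4.Cre+.Pou2af1fl/+, titled Pou2af1+/-, and knockouts (KO) are CD4.Cre+.Pou2af1fl/fl, titled Pou2af1-/-. Cre driven by Cd4 regulatory sequence is active from the thymic stage that precedes both lineages. Since no control carries Cre, the presence of Cre and the loss of Pou2af1 cannot be told apart where Het or KO is set against WT; KO and Het both carry it. Each group holds 4 libraries, 24 in all, and nothing in the labels states that they come from separate animals. By the sex-linked genes Xist and Ddx3y, however, every group held both sexes, with 1 or 2 females among its 4 libraries. The libraries of a group therefore came from more than 1 animal, but the number of animals is not known. The p-values cover only the spread among the libraries at hand, and technical repeats could still account for some of it.

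IL-2 is the growth factor that T cells make when their antigen receptor and CD28 are engaged. It acts on the cell that made it and on its neighbours. The receptor is built from an alpha chain that raises affinity (Il2ra, CD25), a beta chain shared with the receptor for IL-15 (Il2rb, CD122) and the common gamma chain shared with the receptors for several other cytokines (Il2rg, CD132). JAK1 sits on the beta chain and JAK3 on the gamma chain. Once the cytokine binds, they phosphorylate STAT5A and STAT5B, which enter the nucleus and drive a set of genes that includes Il2ra itself. Cish and Socs1 are among the induced genes and encode proteins that damp the signal. Among activated T cells, CD4 cells are the better known makers of IL-2, and CD8 cells respond to it with growth and with genes of the killing machinery.

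Short stretches of DNA next to 2 of the genes are shown because Il2 had the largest difference of the 10 between the cell types and Cish is a textbook STAT5 target. They are from the RefSeq promoter table (GRCm38.p6), read 5′ to 3′ on the strand of the gene. For Il2, 245 bases that end just before the gene as annotated are given, from chr3:37125960-37126204 on the minus strand. Capitals mark GGAAA, the core bound by NFAT factors, on either strand, and ATGNAAAN, a loose form of the octamer ATGCAAAT bound by POU2F1 and POU2F2. For Cish, 30 bases around the RefSeq start site are given, chr9:107296654-107296683 on the plus strand. Capitals mark TTCNNNGAA, the pattern bound by STAT dimers.
Il2: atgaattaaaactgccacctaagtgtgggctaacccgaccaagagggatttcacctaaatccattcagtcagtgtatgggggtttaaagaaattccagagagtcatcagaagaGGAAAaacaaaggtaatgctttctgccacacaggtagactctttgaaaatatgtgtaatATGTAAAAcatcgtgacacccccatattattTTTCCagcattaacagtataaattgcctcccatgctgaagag
Cish: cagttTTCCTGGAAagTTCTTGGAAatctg
Counted from the RefSeq start sites, the GGAAA matches of Il2 began at -137 and -47 and its loose octamer at -78. Both STAT patterns of Cish, TTCCTGGAA and TTCTTGGAA, lay just inside the transcribed sequence and each overlapped a GGAAA. Windows of 250 bases before to 50 bases after a start were searched on both strands for 9 of the 10 genes (Il2rb has no entry), 11 windows in all. Of these, the Cish window alone held TTCNNNGAA, which stood in 8.3% of the 32851 windows in the table, and 2 or more copies stood in 0.457%. The exact octamer ATGCAAAT (1.74% of all windows) and the AP-1 pattern TGANTCA (7.81%) were in 0 of the 11. GGAAA was in 61.3% of all windows and ATGNAAAN in 17.7%, the latter also in the window of Jak3. These matches describe letters only.

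The labels were first checked on the targeted gene. Pou2af1 stood at 38.6 ± 11.1 CPM (mean ± SD, n = 4; CPM are counts relative to the library total, scaled by TMM factors) in CD4 WT, 20.1 ± 4.11 in CD4 Het and 2.18 ± 1.11 in CD4 KO. In CD8 cells it stood at 27.5 ± 5.94, 15.5 ± 1.39 and 1.73 ± 0.770 CPM. Libraries held 11.9 to 21.8 megacounts in genes (median 14.0), so that 3 counts, the floor per library, equalled 0.138 to 0.251 CPM. Cd4 mRNA, at 449 to 542 CPM in CD4 libraries, was at 0.211 to 1.73 CPM in CD8 libraries. Libraries numbered 1 and 2 stood apart from those numbered 3 and 4 in every group, along the second principal component (13.7% of the variance); the first, which separated the cell types, held 53%. The labels do not say what the numbers stand for, and the effect of this split on the 10 genes is given with the results.

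To compare levels between genes, CPM was divided by the length of the joined exons in kilobases (RPKM). In WT CD4 cells the order from high to low was Il2ra at 194 ± 32.9 RPKM, Il2 at 115 ± 28.4, Il2rg at 69.0 ± 4.69, Il2rb at 67.4 ± 30.9, Jak1 at 62.8 ± 2.42, Stat5b at 32.3 ± 1.64, Cish at 27.1 ± 2.82, Stat5a at 23.1 ± 2.48, Jak3 at 16.0 ± 2.51 and Socs1 at 7.58 ± 2.40. The ranges of Il2rg, Il2rb and Jak1 overlapped, as did those of Cish and Stat5a. That of Il2rb (41.5 to 103.5 RPKM) also reached into that of Il2 (76.5 to 145 RPKM). The levels of these genes within a library were not tested against each other, so the overlap does not show equal levels. In WT CD8 cells the order was Il2ra at 172 ± 22.2, Il2rb at 109 ± 6.58, Jak1 at 73.4 ± 6.56, Il2rg at 58.1 ± 5.41, Stat5b at 26.5 ± 1.16, Stat5a at 18.6 ± 1.85, Jak3 at 15.6 ± 2.58, Cish at 14.1 ± 3.26, Socs1 at 6.69 ± 0.604 and Il2 at 4.88 ± 1.55. The same order was found in Het and KO CD8 cells. Here Stat5a, Jak3 and Cish overlapped one after the other, and so did Socs1 and Il2. By its mean, the gene for the cytokine thus held the second place of the 10 in CD4 cells and the last in CD8 cells. Among genes at 1 CPM or more, Il2 lay at percentile 97.8 in WT CD4 cells and 39 in WT CD8 cells.

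**Figure D1:**
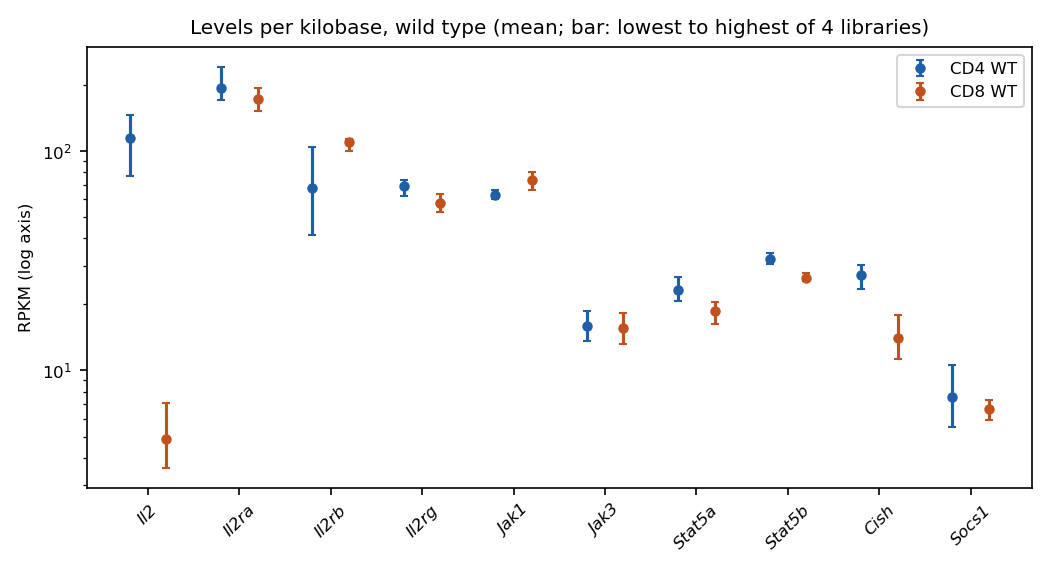
Level per length of the 10 genes in WT libraries, in RPKM on a log axis, for CD4 and CD8 cells; points are means of 4 libraries and bars run from the lowest to the highest. Il2ra is the highest in both cell types, while the mean of Il2 is second in CD4 cells (115 RPKM) and last in CD8 cells (4.88 RPKM).

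CD8 cells differed from CD4 cells in the cytokine, the beta chain and one feedback inhibitor, in the same direction in all 3 genotypes. Il2 and Cish were lower in CD8 cells, Il2rb and Jak1 were higher, and Stat5b was lower in WT and Het. Il2ra, Il2rg, Jak3 and Socs1 passed the test in no genotype. In WT, 5 of the 10 were called, 2 higher and 3 lower in CD8 cells, against 31.2% of all genes tested (14.7% higher and 16.6% lower). In Het 6 of 10 were called, 2 higher and 4 lower, against 34.9% (17.1% and 17.8%). In KO 4 of 10 were called, 2 higher and 2 lower, against 24.1% (11% and 13%). Here and throughout, a call means an adjusted p under 0.05 (Benjamini-Hochberg, over every gene tested) in edgeR's quasi-likelihood test. Unless a block is named, the fit took no account of pairs of same-numbered libraries. CD8 and CD4 libraries did not overlap for Il2 and Cish in all 3 genotypes, for Il2rb in Het and KO, for Jak1 in WT and Het, and for Stat5a and Stat5b in WT and Het. Over all genes tested, 31.2% in WT, 38.1% in Het and 21% in KO did not overlap. With shares this high among all genes, the counts are not read as a result about the 10 genes as a set. The median log2 change of the 10 was -0.21 in WT against -0.02 over all genes, -0.10 against 0.01 in Het and -0.07 against 0.00 in KO.

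**Figure D2:**
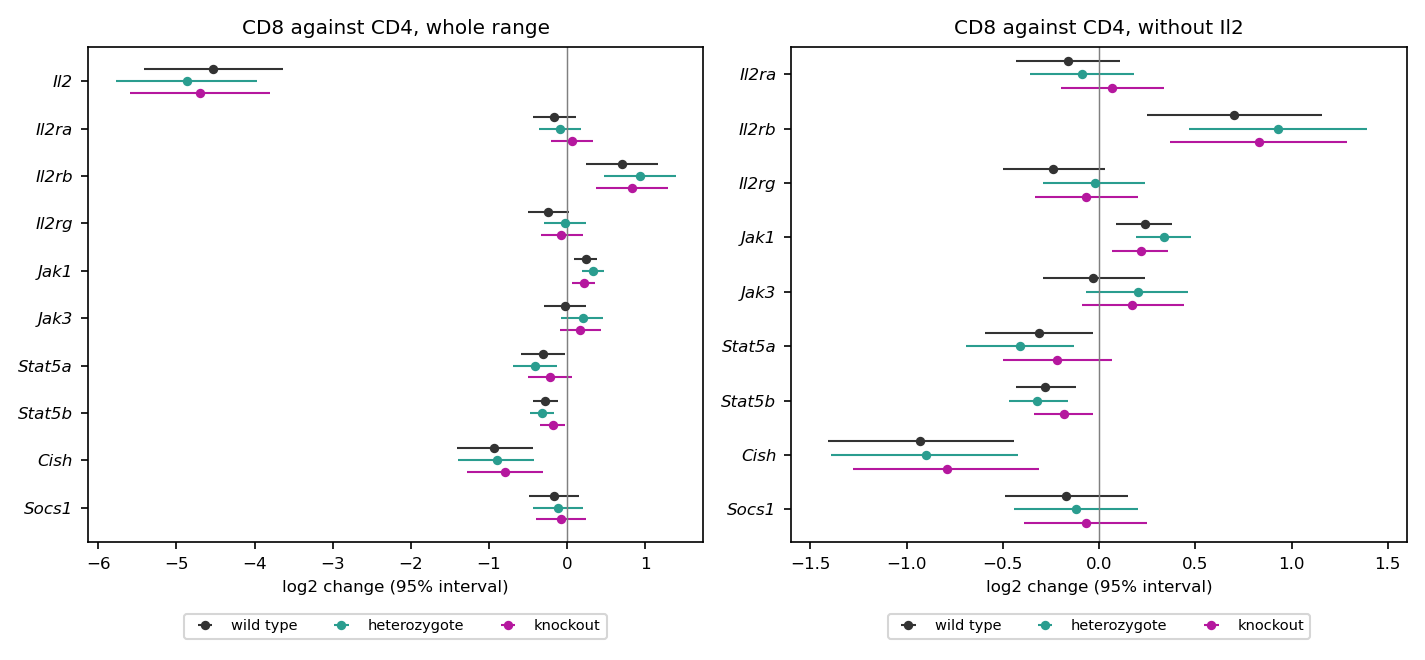
Log2 change of each of the 10 genes in CD8 against CD4 cells, in WT, Het and KO, with 95% intervals; the left panel shows the whole range and the right panel leaves out Il2. Il2 lies between -4.53 and -4.87, Cish between -0.79 and -0.93, and Il2rb between 0.70 and 0.93.

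Il2 (ENSMUSG00000027720.7, chromosome 3, 37125959 down to 37120523 on the minus strand of GRCm38) encodes the cytokine. In WT CD4 libraries it stood at 139, 166, 87.5 and 132 CPM in replicates 1 to 4, and in WT CD8 libraries at 4.12, 4.95, 8.16 and 5.10 CPM. Het CD4 libraries held 129, 139, 199.7 and 233 CPM and Het CD8 libraries 3.95, 3.89, 3.02 and 12.9 CPM. KO CD4 libraries held 151, 122, 114 and 219.8 CPM and KO CD8 libraries 3.19, 2.61, 9.44 and 8.42 CPM. Every CD4 library lay far above every CD8 library, and replicate 4 of CD8 Het stood well above the other 3 of its group. The mean was 23.5 times higher in CD4 than in CD8 cells in WT, 29.5 times in Het and 25.6 times in KO. Even the lowest CD4 library exceeded the highest CD8 library of the same genotype 10.7, 10 and 12.1 times, respectively. The log2 change was -4.53 ± 0.43 (SE) in WT, -4.87 ± 0.44 in Het and -4.70 ± 0.43 in KO (edgeR's quasi-likelihood test, Benjamini-Hochberg adjusted p = 5.73e-08, 2.06e-08 and 3.58e-08). It passed in each of 17 alternatives per genotype. In RNA from a whole culture, fewer cells that make a transcript and less of it per cell cannot be told apart. CD8 libraries held 1.72% to 7.34% of the mean Il2 level of CD4 cells of the same genotype, but 0.0417% to 0.361% of their Cd4 mRNA. The sum of 2 markers of CD4 cells was 533 to 641 CPM in CD4 and 3.10 to 17.8 CPM in CD8 libraries, and the part of CD4 cells in their Il2 level was not tested.

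Il2ra (ENSMUSG00000026770.5, chromosome 2, 11642807 to 11693193) encodes the affinity chain that marks activated and regulatory T cells. It ran from 916 to 1374 CPM in the 12 CD4 libraries and from 762 to 1279 CPM in the 12 CD8 libraries. The cell types overlapped in every genotype, and the log2 change was -0.16 in WT, -0.09 in Het and 0.07 in KO (edgeR's quasi-likelihood test, adjusted p = 0.381, 0.641 and 0.756). Within replicates 1 and 2 alone, Il2ra passed in Het (-0.26, adjusted p = 0.0342). Its mean per length was the highest of the 10 in every group, although in Het and KO CD4 cells its range (160.4 to 173 and 166 to 182 RPKM) lay within that of Il2 (113 to 204 and 99.5 to 192 RPKM). It stood at percentile 98.5 to 99 of genes at 1 CPM or more. Foxp3, which defines regulatory T cells, was at 0.282 to 5.34 CPM in all libraries. The sum of 8 markers of such cells, which include the activation genes Ctla4 and Tnfrsf18, was 745 to 1140 CPM in CD4 and 468 to 779 CPM in CD8 libraries. The part of these cells in the level of Il2ra was not tested.

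Il2rb (ENSMUSG00000068227.9, chromosome 15, 78495271 down to 78479256) encodes the signalling beta chain. WT CD4 libraries held 179.7, 178, 444 and 355 CPM, and WT CD8 libraries held 478, 426, 483 and 484 CPM. In Het, CD4 cells held 237, 222, 270.5 and 281 CPM and CD8 cells 435, 443, 502 and 552 CPM. In KO, CD4 cells held 201, 204, 324 and 262 CPM and CD8 cells 413, 368, 458 and 546 CPM. CD8 lay above CD4 throughout in Het and KO, while in WT the third CD4 library exceeded the second CD8 library. Il2rb was 1.63 times higher in CD8 than in CD4 cells in WT (log2 0.70 ± 0.22 SE), 1.91 times in Het (0.93 ± 0.22) and 1.78 times in KO (0.83 ± 0.22). The adjusted p from edgeR's quasi-likelihood test was 0.0189, 0.00242 and 0.0081. In WT the call was lost without CD4 WT replicate 1 (0.53, adjusted p = 0.0676) or 2 (0.53, adjusted p = 0.0694). It was also lost with only the 2 groups in the fit (0.70, adjusted p = 0.0829). Within replicates 3 and 4 alone the WT value was 0.29 (adjusted p = 0.126). Of 6 markers of natural killer cells, which also carry the beta chain, 5 stayed under 1 CPM in every library. The sum of the list, mostly Eomes, was 43.7 to 90.6 CPM in CD8 and 12.6 to 35.3 CPM in CD4 libraries, and its part in the Il2rb difference was not tested.

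Il2rg (ENSMUSG00000031304.18, chromosome X, 101268255 down to 101264378) encodes the common gamma chain. It ran from 133 to 175 CPM in CD4 libraries and from 120.3 to 222 CPM in CD8 libraries, and the highest value was KO CD8 replicate 2. That library is the 1 female of its group by Xist and Ddx3y, at 222 CPM against 120 to 163 CPM in the 3 males. In CD8 WT the 1 female stood at 129 CPM, within the 126 to 152 CPM of the 3 males, and in CD8 Het the 2 females stood at 154 and 157 CPM against 137 and 147 CPM in the 2 males. The effect of sex on Il2rg was not tested, and with sex as a covariate Il2rg was not called between the cell types. The CD8 against CD4 change of Il2rg was -0.24 in WT, -0.02 in Het and -0.07 in KO (edgeR's quasi-likelihood test, adjusted p = 0.162, 0.909 and 0.757). In KO it passed without CD8 KO replicate 2 (-0.26, adjusted p = 0.0475) and within replicates 3 and 4 alone (-0.35, adjusted p = 0.0353). In WT it passed with only the 2 groups in the fit (-0.24, adjusted p = 0.0497). Per length, the ratio of Il2rb to Il2rg in CD4 cells ran from 0.566 to 1.46 in WT, from 0.759 to 1.17 in Het and from 0.654 to 1.06 in KO. The WT mean of 0.990 lay between replicates 1 and 2, which were well below it, and replicates 3 and 4, which were well above it, and the means in Het and KO were 0.943 and 0.853. In CD8 cells the mean ratio was 1.90, 1.82 and 1.72, with the widest range, 0.922 to 2.53, in KO. The log2 difference of this ratio was 1.06 in WT, 0.95 in Het and 0.95 in KO. In an exact 2-sided permutation test of 4 against 4 libraries, p was 0.0286, 0.0286 and 0.0857, and 0.0858, 0.0858 and 0.171 after adjustment over 6 ratio tests. The smallest p the 70 assignments allow is 0.0286, so the ratio differences did not pass after adjustment.

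Of the kinases, Jak1 (ENSMUSG00000028530.14, chromosome 4, 101265282 down to 101152367), which binds the beta chain and many other receptors, was slightly higher in CD8 cells. WT CD4 libraries held 477, 434, 455 and 449.8 CPM, and WT CD8 libraries 579.9, 560.5, 480.2 and 501 CPM. The groups did not overlap in WT and Het, while in KO the highest CD4 library (476 CPM) lay just above the lowest CD8 library (475 CPM). The log2 change was 0.24 ± 0.07 (SE) in WT, 0.34 ± 0.07 in Het and 0.22 ± 0.07 in KO (edgeR's quasi-likelihood test, adjusted p = 0.0142, 0.000716 and 0.028). Within replicates 3 and 4 alone it was 0.13 in WT (adjusted p = 0.166) and 0.06 in KO (adjusted p = 0.516). The WT call was also lost without CD8 WT replicate 1 or 2 (0.20 each, adjusted p = 0.0547 and 0.0586), and the KO call in 8 of 17 alternatives, without CD8 KO replicate 1 among them (0.17, adjusted p = 0.102). Jak3 (ENSMUSG00000031805.17, chromosome 8, 71676296 to 71690575), the partner of the gamma chain, ran from 64.9 to 100.2 CPM in CD4 and from 70.7 to 104 CPM in CD8 libraries. Its change was -0.03 in WT, 0.20 in Het and 0.17 in KO (adjusted p = 0.9, 0.245 and 0.366), and the cell types overlapped in all 3.

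Stat5a (ENSMUSG00000004043.14, chromosome 11, 100859351 to 100885169) and Stat5b (ENSMUSG00000020919.11, 100850724 down to 100780731) are near neighbours on chromosome 11 that encode the factors activated by both kinases. Their transcripts share 608 of the 50-base words in their exons, 8.21% of Stat5a and 11% of Stat5b, where reads with more than 1 place were not counted. Stat5b was the more even of the pair: WT CD4 libraries held 169.7, 189, 173 and 184 CPM, and WT CD8 libraries 154, 142, 141 and 149 CPM, with no overlap. Its change in CD8 cells was -0.28 ± 0.07 (SE) in WT, -0.32 ± 0.07 in Het and -0.18 ± 0.07 in KO (edgeR's quasi-likelihood test, adjusted p = 0.00664, 0.00199 and 0.0725). In KO the groups overlapped, and Stat5b passed once genotype and replicate number together were a block in the fit (-0.19, adjusted p = 0.0496). It also passed there with the split of replicates as a covariate (-0.19, adjusted p = 0.0371). Without CD4 KO replicate 3 or CD8 KO replicate 2 it passed as well (-0.24 and -0.26, adjusted p = 0.0267 and 0.00733).

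Stat5a was lower in CD8 cells in Het alone of the 3 genotypes by the unblocked test. WT CD4 libraries held 165, 189, 147 and 158 CPM and WT CD8 libraries 146, 139.8, 128 and 116 CPM. Those 2 WT groups did not overlap. The change was -0.31 ± 0.14 (SE) in WT, -0.41 ± 0.14 in Het and -0.22 ± 0.14 in KO (edgeR's quasi-likelihood test, adjusted p = 0.0896, 0.0226 and 0.275). In WT it passed with the block (-0.31, adjusted p = 0.0456). It also passed in WT with only the 2 groups in the fit (adjusted p = 0.0347) and with the split of replicates as a covariate (adjusted p = 0.0257). In Het, Stat5a failed within replicates 1 and 2 alone (-0.15, adjusted p = 0.364) and without CD4 Het replicate 4 or CD8 Het replicate 3 or 4 (-0.33 to -0.38, adjusted p = 0.0653 to 0.0833). The ratio of Stat5a to Stat5b per length was nearly the same in both cell types, 0.716 in CD4 and 0.702 in CD8 cells of WT. Its log2 difference was -0.03 in WT, -0.11 in Het and -0.04 in KO (exact permutation test, p = 0.8, 0.486 and 0.629).

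Cish (ENSMUSG00000032578.7, chromosome 9, 107296026 to 107302784) encodes CIS, which occupies the receptor and is induced by STAT5. WT CD4 libraries held 172, 194, 150.4 and 178 CPM and WT CD8 libraries 73.7, 72.7, 115 and 101 CPM. Het CD4 libraries held 167, 167, 165 and 173 CPM and Het CD8 libraries 84.9, 66.4, 79.6 and 128 CPM. KO CD4 libraries held 196, 148, 138 and 151 CPM and KO CD8 libraries 61.3, 56.6, 118 and 132 CPM. CD8 lay below CD4 with no overlap in all 3 genotypes, and CD8 replicates 3 and 4 lay above 1 and 2 in WT and KO. The CD8 level was 0.527 times the CD4 level in WT, 0.534 in Het and 0.576 in KO. The log2 change was -0.93 ± 0.23 (SE), -0.90 ± 0.23 and -0.79 ± 0.23 (edgeR's quasi-likelihood test, adjusted p = 0.00454, 0.00448 and 0.0154). In KO the call was lost within replicates 3 and 4 alone (-0.22, adjusted p = 0.423) and with only the 2 groups in the fit (-0.79, adjusted p = 0.0799). It was also lost without CD4 KO replicate 1 (-0.68, adjusted p = 0.0545) and without CD8 KO replicate 1 (-0.63, adjusted p = 0.0635). Of the 9 genes with a promoter window, Cish was the one with the STAT pattern shown above.

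Socs1 (ENSMUSG00000038037.5, chromosome 16, 10785536 down to 10782240) encodes an inhibitor that binds JAKs directly, and it was the lowest of the signalling genes per length. It ran from 16.1 to 30.7 CPM in CD4 and from 17.1 to 23.96 CPM in CD8 libraries. The CD8 against CD4 change was -0.17 in WT, -0.12 in Het and -0.07 in KO (edgeR's quasi-likelihood test, adjusted p = 0.427, 0.597 and 0.791). The 2 feedback inhibitors thus differed in their readout, with Cish past the threshold in every genotype and Socs1 in none. The difference between these inhibitors was not tested.

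**Figure D3:**
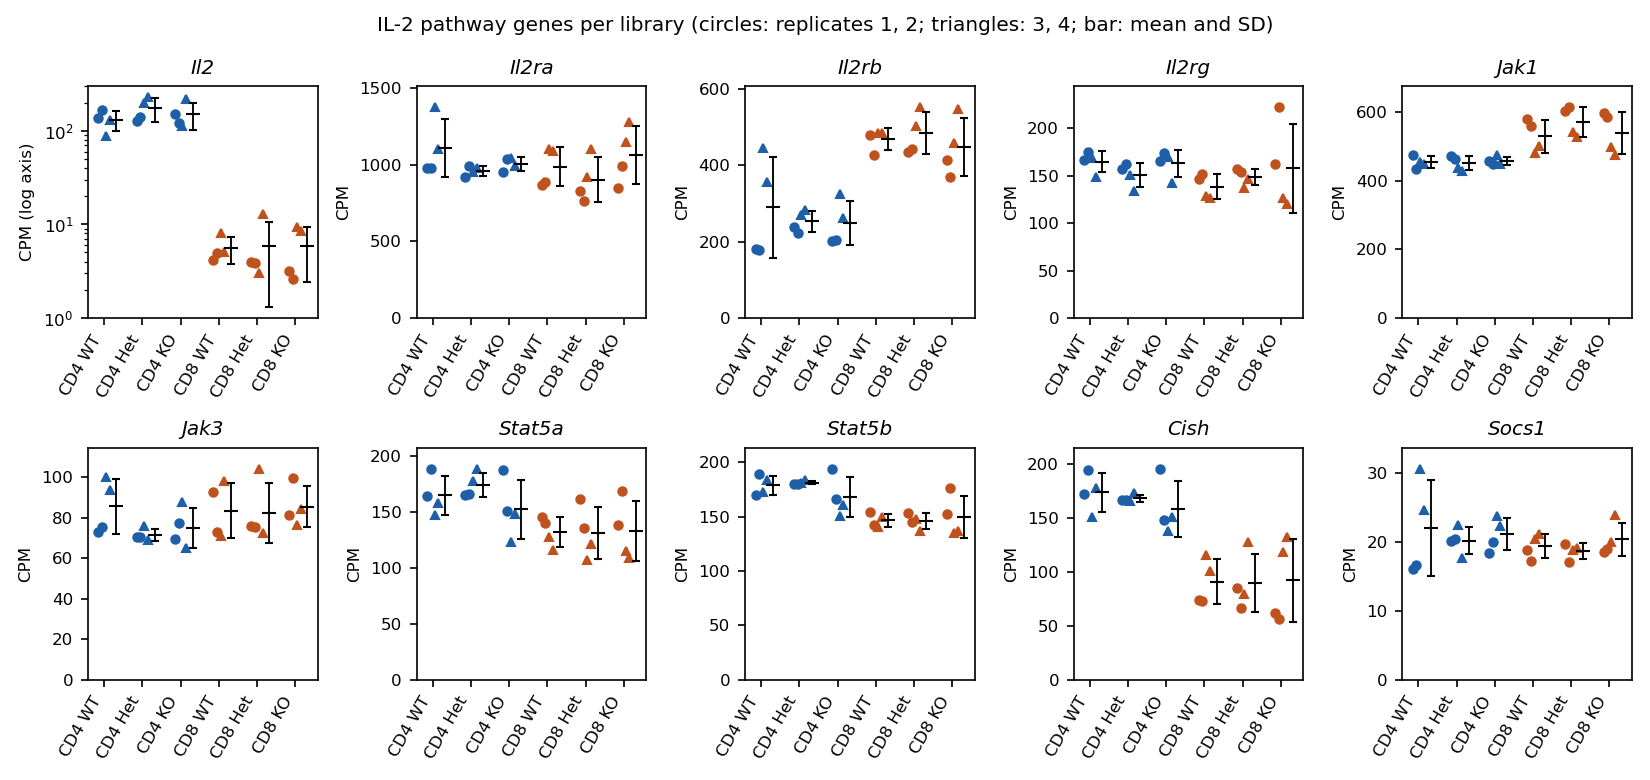
CPM of each of the 10 genes in every library of the 6 groups; circles are replicates 1 and 2, triangles are replicates 3 and 4, and bars show the mean and SD of 4 libraries, on a log axis for Il2 and from 0 for the others. The means of the CD8 groups sit below those of the CD4 groups for Il2 and Cish and above them for Il2rb and Jak1, and the 3 genotypes overlap for all 10 genes.

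Loss of Pou2af1 left no member past the test. In CD4 cells 0 of 10 were called in KO against WT (0.0708% of all genes were called), 0 in Het against WT (0.0865%) and 0 in KO against Het (0.0157%). In CD8 cells 0 of 10 were called in KO against WT (0.0634%), in Het against WT (0.0634%) and in KO against Het (0.0159%). The groups overlapped for every member in all 6 comparisons, in that order, while 1.54%, 6.11%, 2.78%, 2.13%, 1.55% and 2.69% of all genes did not overlap. Few genes of any kind passed: edgeR's quasi-likelihood test called 9, 11 and 2 genes in CD4 and 8, 8 and 2 in CD8 cells, and DESeq2 called 10, 73 and 3, and 8, 8 and 19, with 0 members among the calls of either. At an unadjusted p under 0.05 stood 2.44%, 8.68% and 3.66% of all genes in CD4 and 2.89%, 1.74% and 6.84% in CD8 cells. Jak3 was the single member among them, in CD4 Het against WT. The comparisons of KO and of Het with WT share the WT libraries.

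For Il2 the CD4 means were 131 ± 32.4 CPM in WT, 175 ± 49.7 in Het and 152 ± 48.2 in KO (SD, n = 4). The log2 difference was 0.22 in KO against WT (95% interval -0.33 to 0.77) and 0.42 in Het against WT (-0.13 to 0.97), with adjusted p = 1 and 0.684 in edgeR's quasi-likelihood test. In CD4 replicates 1 and 2 the mean of Il2 was 134 CPM in Het and 152 CPM in WT, and in replicates 3 and 4 it was 217 and 110 CPM, so that Het lay below WT in one set and above it in the other. The difference between these Het effects was 1.17 (95% interval 0.40 to 1.95) and did not pass after adjustment (adjusted p = 0.103). By Xist and Ddx3y, Het replicates 1 and 2 were female and 3 and 4 male, while in WT only replicate 3 was female. The part of sex in this difference was not tested. The interval for KO leaves room for a fall of 0.33 or a rise of 0.77 on the log2 scale. In CD8 cells the means were 5.58 ± 1.77, 5.94 ± 4.65 and 5.92 ± 3.52 CPM, and the interval for KO against WT was wider, -1.02 to 1.15 around 0.06 (adjusted p = 0.997). The test of the difference between the cell types in the effect of KO on Il2 did not pass (-0.18, interval -1.37 to 1.02, adjusted p = 1), nor did that for Het (-0.34, -1.54 to 0.85, adjusted p = 1). Over the members, 0 of 10 passed in either difference of effects, where 0.00753% of all genes passed. An unadjusted p under 0.05 was reached by 1.72% of all genes for KO and 4.05% for Het, and by 0 members.

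Of the receptor chains, Il2rb had the widest intervals in CD4 cells. In CD4 KO against WT, Il2ra differed by -0.13 (95% interval -0.34 to 0.08), Il2rb by -0.22 (-0.80 to 0.37) and Il2rg by -0.01 (-0.18 to 0.16). In CD4 Het against WT, the values were -0.21 (-0.42 to 0.00), -0.19 (-0.78 to 0.39) and -0.12 (-0.29 to 0.04). Of the chains, Il2ra in Het had the lowest adjusted p, 0.576 in edgeR's quasi-likelihood test. In CD8 KO against WT, Il2ra differed by 0.10 (-0.21 to 0.41), Il2rb by -0.08 (-0.33 to 0.17) and Il2rg by 0.17 (-0.16 to 0.51). With replicates 1 and 2 alone, Il2rb was called in CD4 Het against WT (0.36, adjusted p = 0.02), in the opposite direction to the value over all 4 replicates, when 251 genes were called. By Xist and Ddx3y, these Het libraries were female and these WT libraries male, and the part of sex was not tested.

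The kinases, STAT5 factors and inhibitors also gave no call against WT. The narrowest interval among them was that of Jak1 in CD4 cells and that of Stat5b in CD8 cells. In CD4 KO against WT, Jak1 differed by 0.02 (95% interval -0.08 to 0.13), Jak3 by -0.19 (-0.43 to 0.06), Stat5a by -0.10 (-0.35 to 0.14) and Stat5b by -0.08 (-0.23 to 0.07). Cish differed by -0.13 (-0.35 to 0.09) and Socs1 by -0.05 (-0.45 to 0.34). Jak3 in CD4 Het against WT was at -0.26 (-0.50 to -0.02), with adjusted p = 0.548 in edgeR's quasi-likelihood test. Its 4 Het libraries held 70.2, 70.3, 75.9 and 69.0 CPM, and its WT libraries 72.9, 75.4, 100.2 and 93.6 CPM, so that the highest Het library overlapped WT. In CD8 KO against WT, Jak1 differed by 0.01 (-0.19 to 0.21), Stat5b by 0.02 (-0.15 to 0.19), Cish by 0.01 (-0.61 to 0.63) and Socs1 by 0.06 (-0.16 to 0.28). The median log2 change of the 10 in KO against WT was -0.09 in CD4 cells (all genes -0.01) and 0.02 in CD8 cells (all genes 0.00).

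**Figure D4:**
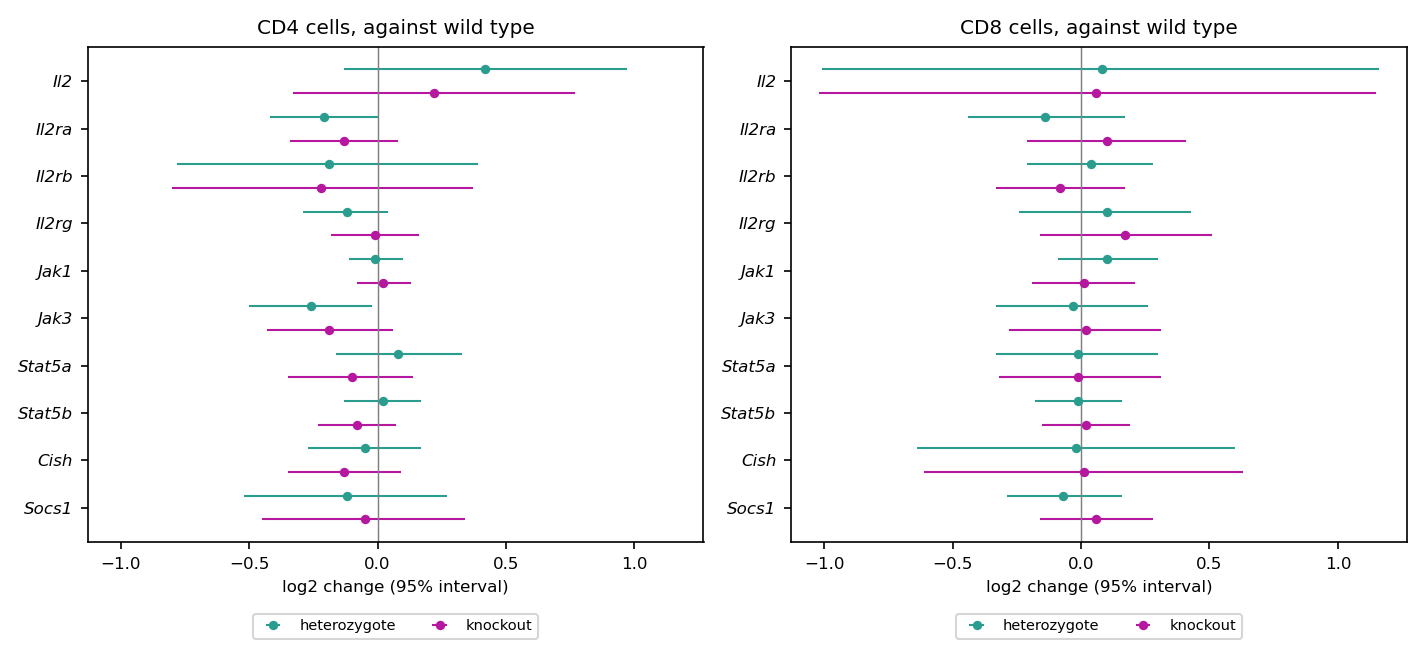
Log2 change of the 10 genes in Het and in KO against WT, in CD4 cells on the left and CD8 cells on the right, with 95% intervals. Nearly all intervals include 0, the exception being Jak3 in CD4 Het (-0.50 to -0.02), which did not pass after adjustment, and the interval of Il2 is far wider in CD8 (-1.02 to 1.15 in KO) than in CD4 cells (-0.33 to 0.77).

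Replicates 3 and 4 differed from 1 and 2 in several members, among them the cytokine in CD8 cells and the beta chain in both cell types. This comparison was chosen after the split was seen. In both cell types, Het replicates 1 and 2, KO replicate 2 and WT replicate 3 were female by Xist and Ddx3y, and the rest male. Sex was not in this fit, and its part in the split was not tested. In CD4 cells 2 of 10 genes were called, both higher (34.8% of all genes, 17.9% higher and 16.9% lower). Il2rb was higher in 3 and 4 by 0.66 ± 0.12 (SE, log2; edgeR's quasi-likelihood test, adjusted p = 0.00117) and Socs1 by 0.34 ± 0.11 (adjusted p = 0.0322). In CD8 cells 7 of 10 were called, 4 higher and 3 lower (17.8% of all genes, 8.98% and 8.86%). Il2 was higher by 1.06 ± 0.30, Cish by 0.70 ± 0.13, Il2ra by 0.36 ± 0.06 and Il2rb by 0.24 ± 0.06 (adjusted p = 0.028, 0.00357, 0.00138 and 0.0188). Il2rg was lower, at -0.33 ± 0.09, Stat5a at -0.35 ± 0.07 and Jak1 at -0.23 ± 0.04 (adjusted p = 0.0229, 0.00436 and 0.00134). In other words, the cytokine, its alpha and beta chains and the STAT5 target were higher in the CD8 libraries numbered 3 and 4, and the gamma chain, Jak1 and Stat5a were lower. The call of Il2 was lost in 9 of 14 alternatives, each time without 1 library, with 0.77 without CD8 Het replicate 4 (adjusted p = 0.0784) as the lowest. The call of Il2rg was lost without CD8 KO replicate 3 or 4, and that of Socs1 in CD4 cells in 6 of 14.

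For Cish the difference between the cell types in this split was itself past the test. In CD8 KO, Cish averaged 58.9 CPM in replicates 1 and 2 and 125 CPM in 3 and 4, whereas in CD4 KO it averaged 172 and 144 CPM. The set effect was larger in CD8 than in CD4 cells by 0.84 ± 0.16 (SE, log2; edgeR's quasi-likelihood test, adjusted p = 0.00429). Jak1 also differed, by -0.19 ± 0.05 (adjusted p = 0.0206), and 5.86% of all genes passed this test. No other member passed it. The difference was 0.90 for Il2, 0.23 for Il2ra and -0.40 for Il2rb (adjusted p = 0.172, 0.134 and 0.0938). In CD4 cells the split of Il2rb differed between WT and Het libraries. WT averaged 179 CPM in replicates 1 and 2 and 399 CPM in 3 and 4, and Het averaged 229.6 and 276 CPM. By Xist and Ddx3y, Het replicates 1 and 2 were female and 3 and 4 male, while in WT only replicate 3 was female. The part of sex in this difference was not tested. The Het effect on Il2rb was lower in replicates 3 and 4 than in 1 and 2, at -0.88 ± 0.15 (adjusted p = 0.0167; 1.75% of all genes passed). The same difference for the KO effect was -0.62 ± 0.15 and did not pass (adjusted p = 0.504). In that test 0% of all genes passed.

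**Figure D5:**
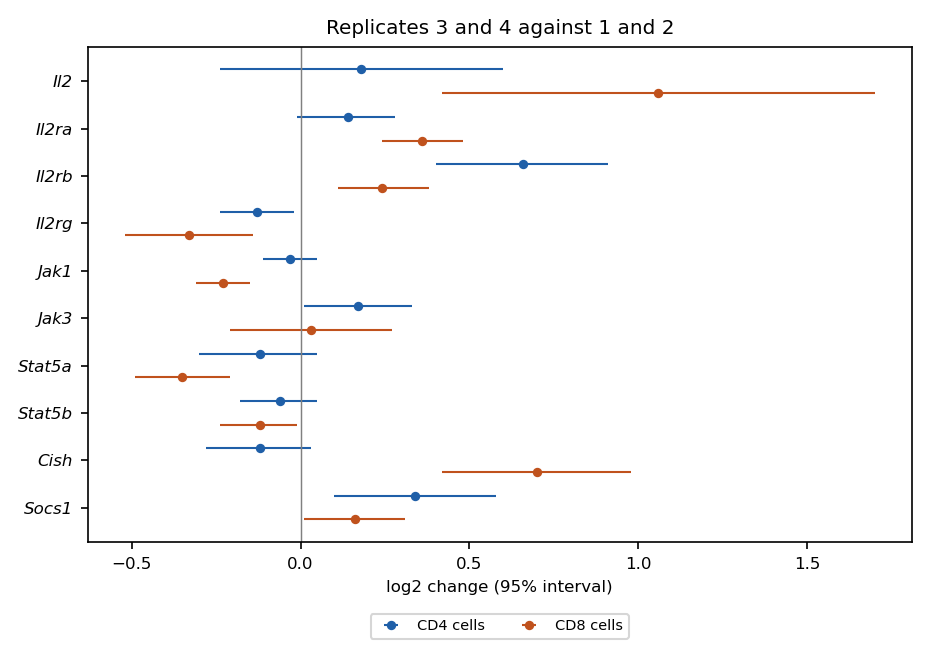
Log2 change of the 10 genes in replicates 3 and 4 against 1 and 2, in CD4 and in CD8 cells, with 95% intervals. Il2, Il2ra and Cish are higher in 3 and 4 in CD8 cells (1.06, 0.36 and 0.70). Il2rb is higher by 0.66 in CD4 and by 0.24 in CD8 cells. The difference between the cell types passed for Cish but not for Il2, Il2ra or Il2rb.

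Around the 10 genes, 6 lists of genes from the same network were read in CD8 against CD4 cells. Their counts stand against the shares of all genes given above. These were 14.7% higher and 16.6% lower in WT, 17.1% and 17.8% in Het and 11% and 13% in KO. No list was tested as a set. Only called genes of lowest p are named per genotype, so a gene named for 1 genotype may also have been called in another. No list gene passed the test of a difference between the cell types in the effect of KO or of Het. Of 10 genes for other cytokines and receptors of the gamma chain family, 5 were expressed enough to be tested (Il4, Il7, Il9, Il15 and Il21 were not). Il7r, the IL-7 receptor of naive and memory T cells, averaged 27.4 ± 18.5 CPM in WT CD4 and 130.3 ± 36.5 CPM in WT CD8 cells (SD, n = 4). Its log2 change was 2.26 ± 0.47 (SE) in WT, 1.77 in Het and 2.67 in KO (edgeR's quasi-likelihood test, adjusted p = 0.00082, 0.00435 and 0.00021). Il15ra, which presents IL-15 to the beta and gamma chains, was lower in CD8 cells, at -1.18 in WT, -1.47 in Het and -0.66 in KO (adjusted p = 0.000842, 7.69e-05 and 0.0488), but in KO it passed in only 8 of 17 alternatives. So in each genotype 1 of the 5 was higher and 1 lower, a count near the 31.2%, 34.9% and 24.1% of all genes called in WT, Het and KO.

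Of 7 other JAK and STAT genes, 0 were higher and 4 lower in CD8 cells in WT and in Het, and 0 and 3 in KO. Of all genes, 16.6%, 17.8% and 13% were lower in WT, Het and KO, and the list's median in WT was -0.32 against -0.02 over all genes. Jak2, the kinase of single-chain and interferon-gamma receptors, averaged 924 ± 23.8 CPM in WT CD4 and 287 ± 34.8 CPM in WT CD8 cells. Its change was -1.68 in WT, -1.67 in Het and -1.48 in KO (edgeR's quasi-likelihood test, adjusted p = 2.24e-10, 2.82e-10 and 1.66e-09). Stat2, a factor of interferon signalling, was lower, at -1.09, -1.73 and -0.90, and Stat6, that of IL-4, at -0.32, -0.33 and -0.28. In WT the change of Jak2 stood beside 0.24 for Jak1 and -0.03 for Jak3, the kinases of the IL-2 receptor, and the difference between these genes was not tested.

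Among 16 further inhibitors of cytokine signalling, 0 were higher and 4 lower in CD8 WT, 1 and 6 in Het and 1 and 4 in KO (list medians -0.13, -0.18 and -0.14). The share of all genes called in either direction was 31.2% in WT, above that of this list, 34.9% in Het and 24.1% in KO. In a fit blocked on genotype and replicate number together, the WT count was 0 higher and 7 lower. The phosphatase gene Ptpn11 was lower, at -0.42, -0.48 and -0.49 in WT, Het and KO (edgeR's quasi-likelihood test, adjusted p = 2.88e-05, 5.35e-06 and 4.69e-06). Ptpn1, another phosphatase, was lower, at -0.36, -0.33 and -0.34, and the adaptor Sh2b3 at -0.22, -0.20 and -0.22. Socs4 was lower, at -0.24 in WT and -0.38 in Het, and Socs7 at -0.24 in Het and -0.30 in KO. The ubiquitin ligase gene Cbl was the one higher, by 0.18 in Het and 0.23 in KO.

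Genes known to respond to IL-2 or STAT5 were called in both directions between the cell types. Of 28, 6 were higher and 11 lower in CD8 WT, 6 and 12 in Het and 5 and 11 in KO, with list medians of -0.24, -0.23 and -0.17. Of all genes, 14.7% were higher and 16.6% lower in WT, 17.1% and 17.8% in Het and 11% and 13% in KO. Gzmb, the granzyme of killer cells, averaged 45.6 ± 24.8 CPM in WT CD4 and 2685 ± 603 CPM in WT CD8 cells, a log2 change of 5.89 ± 0.40 (SE; edgeR's quasi-likelihood test, adjusted p = 1.86e-10), with 5.03 in Het and 5.94 in KO. Il1rl1, the receptor for IL-33, was higher by 2.60, 3.29 and 2.29, Prdm1, encoding BLIMP-1, by 1.69, 1.5 and 1.56, and the kinase gene Pim2 by 0.32, 0.46 and 0.37. The survival gene Bcl2 was higher by 1.12 in Het and 1.21 in KO. Lower in CD8 cells was Tnfrsf4, the costimulatory receptor OX40, at -1.56, -1.58 and -1.28, and so was Irf4, a transcription factor of activated lymphocytes, at -0.68, -0.74 and -0.64. The related receptor gene Tnfrsf18 was lower, at -0.52 in WT and -0.43 in Het, the transcription factor gene Bhlhe40 at -1.38 in WT and the cytokine gene Osm at -1.55 in Het. Bcl2l1, which encodes BCL-XL, was lower in KO, at -0.75, as was the protease gene Furin, at -0.59. Other signals also control many genes of this list.

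In the adaptor, PI3K and MAPK arms behind the receptor, 4 of 20 genes were higher and 2 lower in CD8 WT, 3 and 4 in Het and 2 and 3 in KO. These counts are near the 31.2%, 34.9% and 24.1% of all genes called and are not a result about this list. Pik3cd, the lymphocyte PI3K subunit, averaged 333 ± 18.4 CPM in WT CD4 and 628 ± 47.1 CPM in WT CD8 cells, and its change was 0.93, 1.13 and 0.96 (edgeR's quasi-likelihood test, adjusted p = 7.78e-09, 3.11e-10 and 4.5e-09). In WT, Nras was higher by 0.26, Rps6kb1 by 0.25 and Akt1 by 0.30, the last in only 5 of 17 alternatives and not with the replicate block (adjusted p = 0.0537). In Het, Akt1 was higher by 0.38 and Lck, the kinase of the CD4 and CD8 coreceptors, by 0.17, and in KO Rps6kb1 by 0.22. The exchange factor gene Sos1 was lower, at -0.30 in WT and -0.39 in Het, and the kinase gene Map2k1 at -0.43, -0.60 and -0.48. Mtor was lower in Het (-0.31) and KO (-0.15). The WT call of Map2k1 and the KO call of Mtor held in 10 and 8 of 17 alternatives.

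Of 22 regulators of the Il2 gene itself, 2 were higher and 14 lower in CD8 cells in WT, 2 and 11 in Het and 2 and 13 in KO. Of all genes, 14.7% were higher and 16.6% lower in WT, 17.1% and 17.8% in Het and 11% and 13% in KO. The list medians were -0.26, -0.26 and -0.25 against -0.02, 0.01 and 0.00 over all genes. Ikzf3, which encodes Aiolos, known to repress Il2 in some T cells, averaged 27.5 ± 11.8 CPM in WT CD4 and 149.5 ± 9.95 CPM in WT CD8 cells (log2 change 2.45 in WT, 2.51 in Het and 2.62 in KO; edgeR's quasi-likelihood test, adjusted p = 4.77e-08, 3.43e-08 and 2.11e-08). Nfatc3 was higher by 0.20, 0.22 and 0.28. Lower were the AP-1 gene Junb (-0.76, -0.96 and -0.58) and the NF-kappa-B gene Rela (-0.43, -0.55 and -0.44). Fos was lower, at -1.84 in WT and -2.52 in Het, Rel, which encodes c-Rel, at -0.92 in WT, and Crem, encoding a cAMP-responsive regulator, at -0.89 in Het and -0.68 in KO. Bcl10, a link from the antigen receptor to NF-kappa-B, was lower, at -0.29 in KO.

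Genotype moved none of these lists past the test either. Of the 98 genes tested over the 6 lists, 0 were called in each of the 6 genotype comparisons by edgeR's quasi-likelihood test. At an unadjusted p under 0.05 stood 3 of the 98 in CD4 KO against WT (2.44% of all genes), 11 in Het against WT (8.68%) and 1 in KO against Het (3.66%). In CD8 cells 5, 0 and 11 did (2.89%, 1.74% and 6.84% of all genes), and nothing is read from these counts. DESeq2 called 1, in CD4 Het against WT. Over the 17 alternatives of that comparison, Pim2 and Pou2f2 passed in 2 each, and Ccnd3, Lif, Nfatc2 and Socs2 in 1 each. Bhlhe40, Nfil3 and Stat2 passed in 1 of 17 in CD8 KO against Het, and 0 list genes did in the other comparisons. Among the list genes of lowest p in CD4 KO against WT were Il21r (0.05), Stat2 (0.15), Cbl (-0.12), Pim2 (-0.18) and Pou2f1 (-0.17), all with adjusted p = 1 in edgeR's quasi-likelihood test. In CD4 Het against WT they were Il21r (0.29), Stat2 (0.34), Ptpn2 (0.16), Pim2 (-0.27, adjusted p = 0.172), Pik3cd (-0.19) and Pou2f2 (-0.32). In CD8 KO against WT they were Il15ra (0.42), Socs4 (0.08), Pim1 (0.24) and Fos (0.64), all at adjusted p = 0.987. In CD8 Het against WT they were Il15ra (-0.24), Stat2 (-0.29), Socs3 (-0.32), Gzmb (-0.33), Mtor (-0.10) and Fosb (0.32), at adjusted p = 1. In KO against Het they were Il21r (-0.23), Stat2 (-0.19), Ptpn2 (-0.12), Lta (-0.47) and Pou2f2 (0.23) in CD4 cells. In CD8 cells they were Il15ra (0.66), Socs4 (0.15) and Pim1 (0.38).

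Members also varied together among libraries of 1 group. After the group mean was taken from log2 CPM, Il2rb and Socs1 had a Pearson correlation of 0.88 over the 24 libraries, Il2 and Cish 0.83, and Stat5a and Stat5b 0.79. Jak1 ran against Cish (-0.84), Il2ra (-0.75) and Il2 (-0.73). Of 9079 genes with a mean of 5 CPM or more, Mettl16 (0.89), Nmd3 (0.89), Ercc8 (0.88) and Polr1a (0.88) were most like Il2. For Il2ra they were Fkbp5 (0.92), Ift57 (0.90), Spp1 (0.89) and Tgfbr3 (0.89). For Cish they were Spata5 (0.90), Ercc8 (0.89), Prps1 (0.89) and Rrp1b (0.88). These libraries share the split of numbers 1 and 2 from 3 and 4, and the values are descriptions with no test.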

How the data were processed

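The labels gave each library its group and number. The values are whole-number gene counts that the authors deposited. Per the submitters' processing notes, Trimmomatic 0.35, STAR 2.7.1a, DESeq2 1.26.0 and the build GRCm38 were used. Neither the annotation release nor the strand setting is given in the sources used here. Reads with several places (17.5% to 18.5% of a library) were counted for no gene, and summary lines (31.6% to 35.0% of entries) were kept out of totals. Of 55401 genes, 54349 matched the reference annotation of GRCm38, which gave exon lengths. Floors of 3 counts cover counting error only.

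Counts were fitted in R 4.3.3 with edgeR 4.0.16 (filterByExpr with a minimum count of 10, TMM factors 0.976 to 1.02, quasi-likelihood F test, 2-sided, Benjamini-Hochberg adjustment over all genes tested, threshold 0.05). Genotypes were compared in a fit of the 12 libraries of a cell type (12719 genes in CD4, 12612 in CD8), and cell types and differences of effects in a fit of all 24 (13288 genes). The fits were tested on simulated data with the same spread for every gene and no split of replicates. Of genes changed by 1 on the log2 scale, 98% were called in CD4 KO against WT and 97% in WT CD8 against CD4. Of genes changed by 0.5, 31% and 23% were called, so most changes of that size were missed in these data. They held 100 genes changed by each amount, among 12567 genes for CD4 KO against WT and 13031 for WT CD8 against CD4. In the libraries themselves, 31.2% of all genes were called in WT CD8 against CD4. The share of changes missed with so many genes called was not tested. Each SE was obtained as the log2 change divided by the root of F. Alternatives were DESeq2 1.42.0, other scaling, filter or libraries, sex or the split of replicates as a covariate, and a replicate block. The block was the replicate number within a cell type, and genotype together with number in the fit of all 24.

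Same-numbered libraries were read as pairs where their residuals from the group mean correlated above 0.1 in every case. This held within CD4 cells (0.132 to 0.58) and between CD4 and CD8 cells of 1 genotype (0.148 to 0.452), and failed within CD8 cells (-0.226 to 0.403). These residuals also hold the split of replicates, so the rule cannot show that the libraries are pairs. Of 4 libraries, 3, 2 and 3 correlated best with their own number in CD4 Het against WT, KO against Het and KO against WT. Between the cell types 2, 2 and 4 did so in WT, Het and KO. The labels do not state such pairs. By Xist and Ddx3y, the sex of each number within a genotype was the same in CD4 and CD8 cells. The main tests took no account of pairs, which entered only as a block in an alternative fit.

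The members and lists were chosen with earlier results of these data known. All members were named, and of each list up to 4 called genes of lowest p in each direction per comparison, or, with none called, the 1 of lowest p. Some genes this rule takes are not reported here. Likeness is the Pearson correlation of log2 CPM (prior count 2) after the group mean was taken out, with the 4 highest named.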

Additional observations from a re-analysis of the deposited data

Results flagged for a closer look

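In 3 of the 60 combinations of a member and a group, 1 library stood apart from the other 3 by Dixon's criterion at the 95% level, about what chance gives at 1 in 20. Il2 was at 12.9 CPM in CD8 Het replicate 4, against 3.02 to 3.95 CPM in the rest of its group. Il2rb was at 426 CPM in CD8 WT replicate 2, against 478 to 484 CPM. Jak3 was at 104 CPM in CD8 Het replicate 3, against 72.6 to 75.9 CPM.

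In the comparison of replicates 3 and 4 with 1 and 2, the change of Cish was larger in CD8 than in CD4 cells by 0.84 on the log2 scale (edgeR's quasi-likelihood test, adjusted p = 0.00429). The same difference was -0.19 for Jak1 (adjusted p = 0.0206). The Het effect on Il2rb in CD4 cells differed between replicates 3 and 4 and replicates 1 and 2 by -0.88 (adjusted p = 0.0167). Het replicates 1 and 2 were female and 3 and 4 male, and the part of sex was not tested.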

How the results depend on the processing

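No member called over all libraries changed sign. Of the recomputed values of the 31 member results at an unadjusted p under 0.05 over all libraries, 436 stayed on their side of the threshold, 41 lost a call and 11 gained one, all in the same direction; the cause was not tested. The other member results gained 7 calls, which makes 18 gained in all, 17 in the same direction and 1 in the opposite one. Replicates 1 and 2 were female in CD4 Het and male in CD4 WT. The number of members called in CD4 Het against WT was 1 in place of 0 with replicates 1 and 2 alone (Il2rb, 0.36 against -0.19 over all libraries). In KO CD8 against CD4 it was 2 in place of 4 with only the 2 groups in the fit, and 2 to 5 when 1 library was left out (2 without CD4 KO replicate 1 or CD8 KO replicate 1). In WT CD8 against CD4 it was 3 in place of 5 with replicates 3 and 4 alone. In CD4 replicates 3 and 4 against 1 and 2 it was 5 in place of 2 with no filter on low counts, and 1 to 3 when 1 library was left out, with 1 without CD4 KO replicate 1 or CD4 WT replicate 1, 2 or 4. With the replicate number as a block, 0 members were called in every genotype comparison. With genotype and number together as a block, 6, 6 and 5 were called in CD8 against CD4 in WT, Het and KO. Beyond Stat5a in WT and Stat5b in KO the block changed no call. Over all genes, CD4 Het against WT gave 11 calls, 45 with the block, 73 with DESeq2, 79 with the split of replicates as a covariate, and 251 and 56 with replicates 1 and 2 or 3 and 4 alone. Within CD8 cells, same-numbered libraries were not read as pairs. There the block gave 7, 2 and 8 calls in Het against WT, KO against Het and KO against WT. In these comparisons 0, 3 and 3 of 4 libraries correlated best with their own number. Il2 in CD8 cells had 37 to 187 counts per library and a coefficient of variation of 31.8% to 78.3% within groups. Its genotype intervals were wide (-1.02 to 1.15 in KO against WT) and leave room for differences inside them.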
